A study of Homo sapiens with 8 samples.

Results

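The E2F transcription factors and the pocket proteins that bind them were followed here in human FT293 cells that express GFP, HuR, TIA1 or TIAR. The genes were chosen by name, as E2F1 to E2F8 together with RBL1 (p107) and RBL2 (p130), and every probe that the array design assigns to them was used. They comprise 10 of the 36337 gene names on the array and 15 of its 50599 probes. The rule uses names alone and sets no threshold on a measured value.

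RNA was measured on 8 one-colour arrays, 2 for each line, all on 1 slide. FT293 cells are HEK293 cells of the Flp-In T-REx system, in which a transgene sits at one chosen site of the genome and is switched on by tetracycline. The control lines expressed GFP alone or GFP-tagged HuR, an RNA-binding protein that recognizes AU-rich elements, and the other lines expressed GFP-tagged TIA1 or TIAR, a pair of closely related RNA-binding proteins that act in splicing and in the silencing of translation. All lines, controls included, were treated with tetracycline, and the methods place the RNA on day 3 of treatment. The paper reports that HuR expression raised cell proliferation and that TIA1 or TIAR expression lowered it. HuR is therefore not a neutral control for cell cycle genes. Each protein is represented by 1 line, and the labels do not say that the arrays of a line came from separate cultures, so p-values measure the spread between these arrays, which may be technical.

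In the classical scheme, the pocket proteins hold E2F factors on the promoters of cell cycle genes and keep them silent in resting and early G1 cells. Cyclin-dependent kinases of G1 phosphorylate the pocket proteins, E2F is set free, and the genes of DNA synthesis are transcribed. E2F1, E2F2 and E2F3 are the activators of the family, E2F4, E2F5 and E2F6 act mainly as repressors, and E2F7 and E2F8 are atypical repressors that bind DNA without a DP partner. HEK293 cells, and therefore all 4 lines, carry the adenoviral E1A protein, which binds pocket proteins and displaces E2F from them.

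Several of the genes are known as targets of E2F themselves, and their promoters were therefore searched for E2F sites. Promoter sequences of RefSeq (GRCh38.p14), with 250 bases before and 50 bases after the annotated start, were found for 8 of the 10 genes, as 10 promoters. Sequences of E2F5 and E2F8 were not used here. Each promoter was searched on both strands for 4 words of the E2F consensus, TTTCCCGC, TTTGGCGC, TTTCGCGC and TTTGCCGC. No word is contained in another, and overlapping matches were each counted. At least 1 word was present in 4 of the 10 promoters, against 1164 of all 35097 promoters (3.32%) and 4.1% of the promoters of protein-coding genes. The matching stretches are shown because E2F1, E2F2 and RBL1 were called in the comparisons of the lines, whereas E2F3 was not. They read 5′ to 3′ on the strand of the gene, with the matched words in capitals.

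E2F1, chr20:33686386-33686438, minus strand: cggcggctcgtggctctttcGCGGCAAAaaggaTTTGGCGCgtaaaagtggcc
E2F2, chr1:23531248-23531295, minus strand: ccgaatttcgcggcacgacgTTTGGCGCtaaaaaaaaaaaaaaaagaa
E2F3, chr6:20401806-20401853, plus strand: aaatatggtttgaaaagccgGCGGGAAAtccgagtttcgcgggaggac
RBL1, chr20:37095998-37096043, minus strand: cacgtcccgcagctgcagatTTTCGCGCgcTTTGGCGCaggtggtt

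The E2F1 promoter held 2 words, with first bases at positions -33 and -20 from the start, and the RBL1 promoter held 2, at positions -26 and -16. The E2F2 promoter held 1 word at position -42, and 1 of the 2 E2F3 promoters held 1 at position -53. TTTGGCGC was shared by the E2F1, E2F2 and RBL1 promoters and is present in 0.652% of all promoters. None of the words occurred in the promoters of E2F4, E2F6, E2F7 and RBL2 within this window. A match describes letters only and does not show that a site is bound, and a link of the words to the changes between lines was not tested.

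Signals are given on the log2 scale relative to the 75th percentile of each array, so that 0 is the signal of that percentile, and are compared between lines for the same probe only. A gene was called when it differed by at least 2-fold with a Benjamini-Hochberg adjusted p under 0.05 in limma, fitted on the 4 arrays of a comparison over all probes tested. Where a gene had several probes, the one with the highest mean signal is its main probe. All 15 probes were well above background on all 8 arrays, so that each of the 10 genes was tested in all 6 comparisons. In RNA of a whole culture, a different share of cells in a phase of the cell cycle and a different amount of RNA per cell cannot be told apart. By flow cytometry, the paper found more cells in G0/G1 and fewer in S phase with TIA1 or TIAR, but not with GFP or HuR. The relation of those shares to the signals here was not tested.

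The array GFP 1 stood apart from the other 7. On it, 86.0% of probes were well above background, against 53.2% to 58.5% on the others, and its mean local background was 90.0 intensity units, against 37.4 to 43.5. The GFP arrays differed by at least 2-fold for 15.8% of probes, against 0.455% to 1.45% in the other lines, while 0 of the 15 E2F and pocket protein probes did so in any line. Among markers of other cells, PTPRC (CD45 of blood cells) had a log2 signal of 1.12 on GFP 1 and of -4.66 to -3.94 on the other arrays, and CD3E of T cells had -2.76 on GFP 1 and -7.24 to -5.23 elsewhere. ALB, the gene of albumin in liver cells, was higher in the TIA lines than in HuR-expressing cells. Its GFP values were split, at -3.53 on GFP 1 and -6.04 on GFP 2, and it was not called over GFP with both arrays. It was at -5.94 and -5.42 on the HuR arrays, well above background on 1 of them, and between -3.13 and -2.76 on the TIA arrays, and rose over HuR by 2.82 (limma adjusted p = 0.0032) for TIA1 and 2.61 (adjusted p = 0.0057) for TIAR. The endothelial markers PECAM1 and CDH5 lay between -8.04 and -3.58 on all arrays. PECAM1 was well above background on 1 HuR array only, whereas CDH5 and PTPRC were so on all arrays. Of the 5 markers of HEK293 cells, the epithelial keratins KRT8 and KRT18 and the mesenchymal VIM were well above background on all arrays and not called over HuR. The neurofilament gene NEFL was also well above background on all arrays and fell over HuR by -1.40 (adjusted p = 0.0028) for TIA1 and -1.68 (adjusted p = 0.0049) for TIAR. NEFM, well above background on 7 of the 8 arrays, fell by -1.05 (adjusted p = 0.0088) for TIAR and had a value of -0.74 for TIA1. The part of these markers in the results was not tested. The main TIAL1 probe was at 4.87 and 4.98 on the TIAR arrays and between 1.63 and 2.52 on all others, whereas the main TIA1 and ELAVL1 probes were not higher on the TIA1 and HuR arrays than elsewhere. Whether these probes lie in the expressed sequence is not known here, so the latter do not check the labels. By the positions in the names of the scans, the GFP and TIA1 arrays lay in 1 row of the slide and the HuR and TIAR arrays in the other. Row and line can therefore not be told apart between TIA1 and HuR, TIAR and TIA1, HuR and GFP, or TIAR and GFP. TIAR and HuR shared a row, as TIA1 and GFP did.

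Compared with HuR-expressing cells, 4 of the 10 genes were called when TIA1 was expressed and 4 when TIAR was, and they were the same genes in both. The activators E2F1 and E2F2 and the pocket protein RBL1 rose, and the repressor E2F5 fell. Over all genes tested, 13.2% were called for TIA1 and 10.2% for TIAR, with 8.45% and 7.38% called higher and 4.73% and 2.84% called lower. The median log2 fold change of the 10 genes was 0.25 for TIA1 and 0.19 for TIAR, against 0.08 and 0.06 over all genes tested. The arrays of the lines did not overlap for 8 and 9 of the 10 genes, against 76.1% and 72.1% of all genes, and 7 and 5 of the 10 passed the adjusted p alone, against 41.6% and 30.9%. These shares of genes without overlap are near those of all genes. Both comparisons use the same HuR arrays and are therefore not independent of each other.

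**Figure D1:**
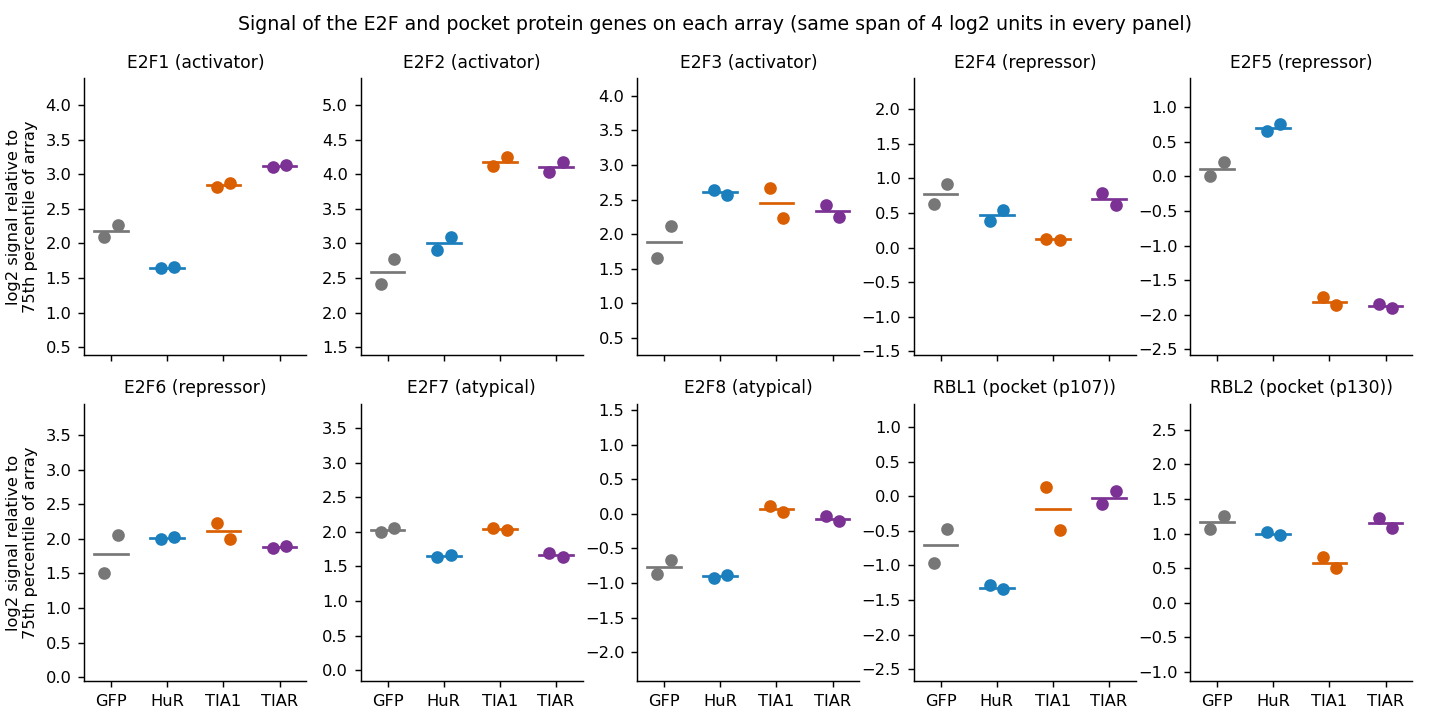
Log2 signal of the main probe of each gene relative to the 75th percentile of its array, in GFP-, HuR-, TIA1- and TIAR-expressing cells. Points are single arrays, horizontal lines are means of 2 arrays, and every panel spans the same number of log2 units. E2F5 lies below -1.7 on all TIA1 and TIAR arrays and at or above 0 on all GFP and HuR arrays.

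E2F1, the activator best known for driving cells into S phase and for inducing apoptosis when in excess, is measured by 1 probe (chromosome 20, 32263989 to 32264048, hg19) that is printed 10 times on the array. Its log2 signal was 1.65 and 1.66 on the HuR arrays and 2.09 and 2.27 on the GFP arrays. It was 2.82 and 2.88 on the TIA1 arrays and 3.11 and 3.13 on the TIAR arrays. The 4 lines did not overlap, and their order from low to high was HuR, GFP, TIA1 and TIAR. E2F1 rose by a log2 fold change of 1.20 (standard error 0.09, 2.30-fold, limma adjusted p = 0.0032) in TIA1-expressing and of 1.47 (standard error 0.09, 2.77-fold, adjusted p = 0.0045) in TIAR-expressing cells over HuR. The repeated spots, which measure the precision of the array and not of the cells, had a standard deviation of 0.05 to 0.14 log2 units within an array over the 8 to 10 spots that were kept. No neighbours in the order of the lines were called different, since HuR and GFP differed by -0.53 (adjusted p = 0.26), TIA1 and GFP by 0.67 (adjusted p = 0.18) and TIAR and TIA1 by 0.27 (adjusted p = 0.23).

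E2F2, an activator with largely the same targets as E2F1, is measured by 1 probe (chromosome 1, 23832933 to 23832992, hg19). Its log2 signal was 2.41 and 2.78 on the GFP arrays and 2.91 and 3.09 on the HuR arrays. It was 4.12 and 4.25 on the TIA1 arrays and 4.03 and 4.18 on the TIAR arrays. Both TIA lines lay above both control lines on every array and overlapped each other. E2F2 rose by 1.18 (standard error 0.12, adjusted p = 0.0047) in TIA1-expressing and by 1.10 (standard error 0.12, adjusted p = 0.0093) in TIAR-expressing cells over HuR. In contrast to E2F1, the GFP arrays had the lowest E2F2 signals.

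E2F3 encodes the third activator, which is produced in a long and a short form from separate promoters. Its main probe (chromosome 6, 20493845 to 20493904, hg19) gave 2.64 and 2.57 on the HuR arrays, 2.66 and 2.23 on the TIA1 arrays and 2.42 and 2.25 on the TIAR arrays. The GFP arrays were lowest, at 1.66 and 2.12. The difference over HuR was -0.16 (95% interval -0.63 to 0.30, adjusted p = 0.49) for TIA1 and -0.27 (95% interval -0.57 to 0.03, adjusted p = 0.13) for TIAR, so that E2F3 was not called. Of the 3 activators, E2F1 and E2F2 were thus called higher and E2F3 was called in neither line. The other E2F3 probe (chromosome 6, 20490602 to 20490661) differed by -0.38 (adjusted p = 0.050) and -0.57 (adjusted p = 0.018), below 2-fold.

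E2F5, a repressor that pairs mainly with p130 and p107, had the largest difference of the 10 genes in size. It is measured by 1 probe, printed as 1 spot on each array. Its log2 signal was 0.65 and 0.75 on the HuR arrays and 0.00 and 0.21 on the GFP arrays. It was -1.75 and -1.86 on the TIA1 arrays and -1.84 and -1.90 on the TIAR arrays. In processed intensity, this is 2450 and 2796 on the HuR arrays against 331 to 388 on the 4 arrays of the TIA lines. E2F5 fell by a log2 fold change of -2.50 (standard error 0.10, 5.66-fold, limma adjusted p = 0.0018) in TIA1-expressing and of -2.57 (standard error 0.10, 5.94-fold, adjusted p = 0.0036) in TIAR-expressing cells over HuR. The TIA lines were close to each other, with a difference of -0.06 (95% interval -0.37 to 0.24, adjusted p = 0.77).

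The other repressors showed no such difference. E2F4, the most abundant repressor partner of p130 in resting cells (probe on chromosome 16, 67231510 to 67231789, hg19), gave 0.38 and 0.55 on the HuR arrays, 0.13 and 0.11 on the TIA1 arrays and 0.79 and 0.62 on the TIAR arrays. It was lower than HuR on both TIA1 arrays and higher on both TIAR arrays, by -0.35 (adjusted p = 0.063) and 0.24 (adjusted p = 0.21). The difference between TIAR and TIA1 was 0.59 (95% interval 0.27 to 0.91, adjusted p = 0.078). E2F6, which represses without pocket proteins through Polycomb-like complexes, differed from HuR by 0.10 (adjusted p = 0.54) in TIA1-expressing and -0.13 (adjusted p = 0.33) in TIAR-expressing cells at its main probe (chromosome 2, 11585524 to 11585583, hg19). Its 2 other probes differed by -0.10 to 0.47 and were not called in either line.

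E2F8 and E2F7, the atypical members, act in a feedback loop that restrains E2F1. E2F8 (probe on chromosome 11, 19245675 to 19245734, hg19) gave -0.93 and -0.88 on the HuR arrays, -0.87 and -0.67 on the GFP arrays, 0.11 and 0.03 on the TIA1 arrays and -0.03 and -0.10 on the TIAR arrays. The TIA lines lay above both control lines on every array. Its log2 difference over HuR amounted to 0.97 (standard error 0.09, adjusted p = 0.0047) for TIA1 and 0.84 (standard error 0.10, adjusted p = 0.0097) for TIAR, past the adjusted p but just under 2-fold. E2F7 (main probe on chromosome 12, 77415520 to 77415579, hg19) gave 2.06 and 2.02 on the TIA1 arrays and 2.00 and 2.05 on the GFP arrays, against 1.63 and 1.66 on the HuR arrays and 1.70 and 1.63 on the TIAR arrays. It differed from HuR by 0.40 (adjusted p = 0.030) in TIA1-expressing and by 0.02 (adjusted p = 0.87) in TIAR-expressing cells. The direct difference between TIAR and TIA1 was -0.37 (adjusted p = 0.14). The other E2F7 probe (chromosome 12, 77417576 to 77417635) had its lowest mean in GFP, at -3.46, and its highest in TIA1, at -2.87. There TIA1 differed from GFP by 0.59 (limma adjusted p = 0.33), against 0.02 (adjusted p = 0.96) at the main probe. Over HuR it differed by 0.30 (adjusted p = 0.20) for TIA1 and -0.03 (adjusted p = 0.92) for TIAR, and was not called.

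**Figure D2:**
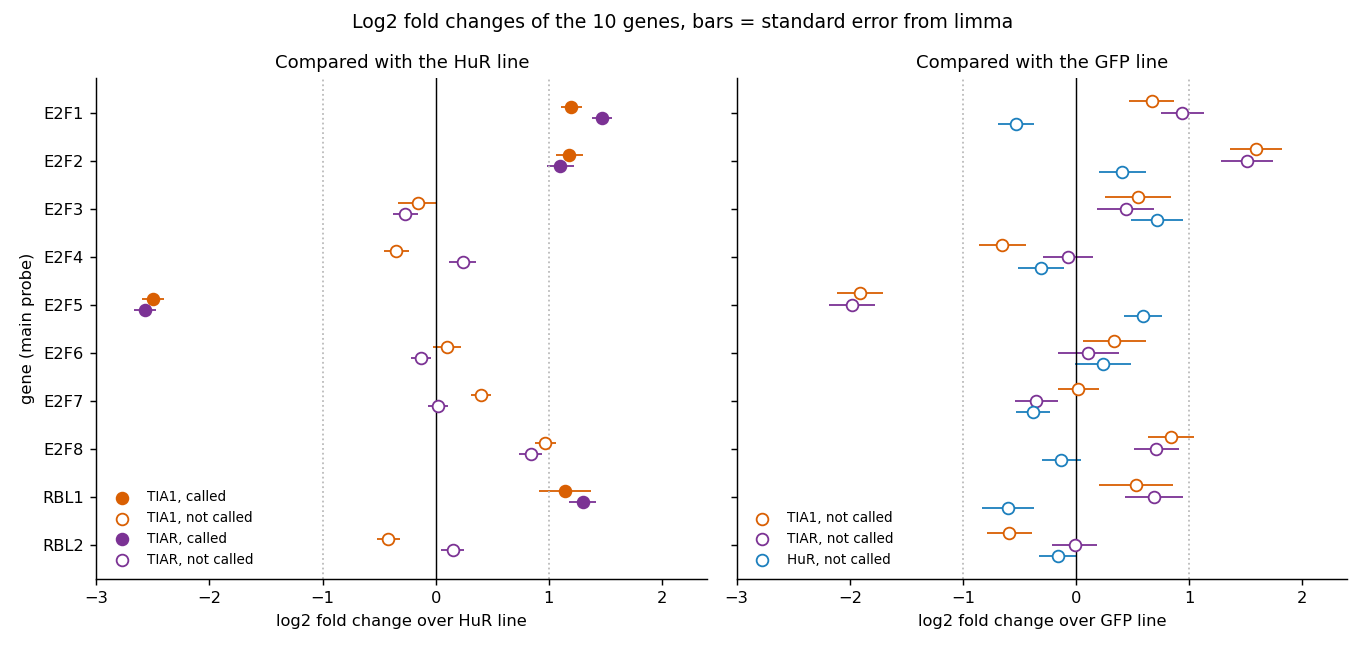
Log2 fold changes of the main probe of the 10 genes over HuR-expressing cells (left) and over GFP-expressing cells (right), with the standard error of limma as bars and dotted lines at 2-fold. Filled points were called and open points were not. Filled points are E2F1, E2F2, E2F5 and RBL1 over HuR, and no point over GFP is filled.

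The pocket proteins followed here, RBL1 and RBL2, differed from each other. RB1, another pocket protein, was not among the genes chosen. RBL1 (p107), which accumulates in cycling cells and is a known E2F target, gave -1.29 and -1.34 on the HuR arrays, -0.96 and -0.47 on the GFP arrays, 0.13 and -0.49 on the TIA1 arrays and -0.12 and 0.08 on the TIAR arrays at its main probe (chromosome 20, 35627197 to 35627256, hg19). The HuR arrays were lowest, and one TIA1 array, at -0.49, reached down to the upper GFP array. RBL1 rose by 1.14 (standard error 0.23, adjusted p = 0.023) in TIA1-expressing and by 1.30 (standard error 0.12, adjusted p = 0.0068) in TIAR-expressing cells over HuR. The call for TIA1 was lost without the array HuR 1 (adjusted p = 0.10), HuR 2 (adjusted p = 0.12) or TIA1 1 (log2 fold change 0.82). It was also lost with normexp and quantile normalization together (0.94), with the authors' values (0.97) and without a filter on dim probes (adjusted p = 0.079). RBL2 (p130), the pocket protein of resting cells (probe on chromosome 16, 53524846 to 53524905, hg19), gave 1.02 and 0.98 on the HuR arrays, 0.66 and 0.50 on the TIA1 arrays and 1.22 and 1.08 on the TIAR arrays. It was lowest on the TIA1 arrays, with differences from HuR of -0.42 (adjusted p = 0.037, below 2-fold) and 0.15 (adjusted p = 0.32), and TIAR and TIA1 differed by 0.57 (95% interval 0.23 to 0.91, adjusted p = 0.089).

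The other RBL1 probe (chromosome 20, 35635829 to 35635888, hg19) is assigned by the array design to another RefSeq transcript of the gene. Its log2 signal was -4.19 and -3.83 on the HuR arrays, -4.48 and -4.85 on the GFP arrays, -3.31 and -3.15 on the TIA1 arrays and -2.13 and -2.77 on the TIAR arrays. The 4 lines did not overlap at this probe, and TIAR was highest. Over HuR it differed by 0.78 (standard error 0.16, adjusted p = 0.024, below 2-fold) in TIA1-expressing cells and rose by 1.56 (standard error 0.27, adjusted p = 0.021) in TIAR-expressing cells, and the difference between TIAR and TIA1 was 0.78 (95% interval 0.13 to 1.44, adjusted p = 0.16). Both RBL1 probes were thus higher in the TIA lines than in HuR-expressing cells, but they placed GFP differently, above HuR at the main probe and below it at the other.

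**Figure D3:**
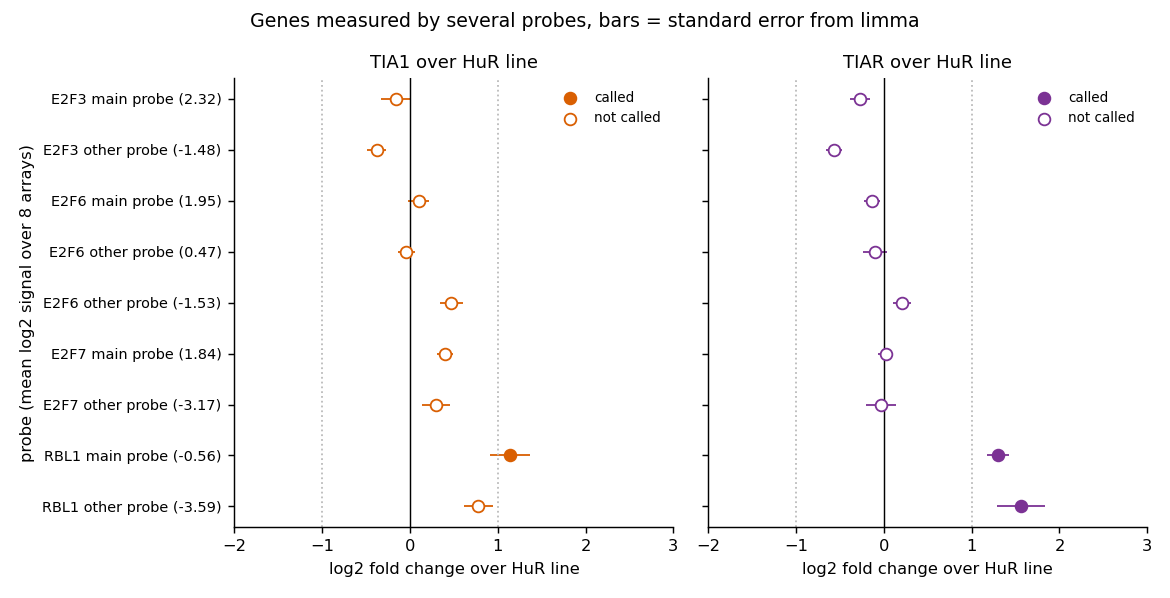
Log2 fold changes over HuR-expressing cells of each probe of the genes with several probes, with the standard error of limma as bars and the mean log2 signal over 8 arrays after each name. Filled points were called. The main RBL1 probe was called in both TIA lines and the other RBL1 probe in TIAR-expressing cells, and no probe of E2F3, E2F6 or E2F7 was called.

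The calls in TIAR-expressing cells rested on both HuR arrays. Without HuR 1 or HuR 2, E2F5 was the only gene of the 10 that was called, as 2.74% and 2.29% of all genes were. E2F1 then had an adjusted p of 0.053 or 0.052, E2F2 of 0.075 or 0.069 and RBL1 of 0.062 or 0.069 in limma.

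GFP-expressing cells provide a control without an RNA-binding protein. With both GFP arrays, 0 of the 10 genes were called in TIA1-, TIAR- or HuR-expressing cells, as 0% of all genes tested were in each comparison with limma. At an unadjusted p under 0.05, 6 of the 10 genes differed for TIA1, 4 for TIAR and 3 for HuR, against 21.4%, 16.1% and 16.9% of all genes. The arrays did not overlap for 7, 7 and 9 of the 10, against 57.7%, 53% and 57.3% of all genes. E2F2 differed from GFP by 1.59 (standard error 0.23, adjusted p = 0.10) for TIA1 and 1.51 (standard error 0.23, adjusted p = 0.18) for TIAR. E2F5 differed by -1.91 (standard error 0.20, adjusted p = 0.095) for TIA1 and -1.98 (standard error 0.20, adjusted p = 0.15) for TIAR. E2F1 was higher than GFP by 0.67 and 0.94 and RBL1 by 0.53 and 0.69, below 2-fold in both lines.

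When GFP 2 alone stood for GFP and its spread was assumed to be that of the other line, E2F2 and E2F5 were called in both TIA lines. E2F5 fell by -2.02 (adjusted p = 0.020) in TIA1-expressing and by -2.08 (adjusted p = 0.025) in TIAR-expressing cells, and E2F2 rose by 1.41 (adjusted p = 0.027) and 1.33 (adjusted p = 0.044). Over all genes, 11.5% were then called for TIA1 (7.27% higher and 4.22% lower) and 6.65% for TIAR (5.11% and 1.54%). HuR-expressing cells had 0 of the 10 genes called over GFP 2, against 8.5% of all genes (4.47% higher and 4.03% lower). With GFP 1 alone, the same genes were called in TIA1-expressing cells, and in TIAR-expressing cells E2F1 was called as well, with a log2 fold change of 1.03 (adjusted p = 0.024). Over all genes, 22.9% and 20.4% were called against GFP 1 alone, near the 2 and 3 of 10. For E2F2 and E2F5 the direction was thus the same against either control line, with smaller values against GFP than against HuR for E2F5. HuR-expressing cells differed from GFP by 0.59 (adjusted p = 0.25) for E2F5 and by 0.72 (adjusted p = 0.27) for E2F3.

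Compared with TIA1-expressing cells, TIAR-expressing cells had 0 of the 10 genes called, against 2.36% of all genes (1.33% higher and 1.03% lower), and 0 past the adjusted p alone, against 3.41%. At an unadjusted p under 0.05 in limma, 3 genes differed, E2F4, E2F7 and RBL2, against 23.3% of all genes. The number of all genes called between these lines was 489 with 4 arrays and 0 to 25 with any 1 of them left out. The arrays did not overlap for 6 of the 10, against 56.3% of all genes. The TIAR and TIA1 arrays lay in different rows of the slide, so row and line cannot be told apart here.

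The genes whose pattern over the 8 arrays was most like that of E2F1 were NEK11, ADNP and MEX3B, with a root mean square distance of 0.06, 0.08 and 0.09 log2 units after each gene's own mean was subtracted. For E2F5 they were NT5M, LINC00263 and GLT25D2, at 0.18, 0.21 and 0.28. The search covered the 18560 other genes whose main probe was well above background on all arrays.

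The partners and kinases of the family were followed as lists. Of the DP partners, with which E2F1 to E2F6 bind DNA, TFDP1 and TFDP2 were tested and neither was called over HuR. TFDP1 gave 3.20 and 3.26 on the HuR arrays, 3.65 and 3.71 on the TIA1 arrays and 2.68 and 2.75 on the TIAR arrays. It was thus above HuR in one TIA line and below it in the other, by 0.45 (adjusted p = 0.023) and -0.52 (adjusted p = 0.024). The second TFDP1 probe had the same signs, at 0.54 and -0.37. Of the 7 partners of E2F6 in its repressor complexes, 0 were called in either line. Over all genes, 13.2% were called for TIA1 and 10.2% for TIAR. At these shares, lists as short as those of the DP and E2F6 partners would hold few called genes or none.

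Of the 8 kinases and cyclins that phosphorylate pocket proteins, 2 fell and 0 rose over HuR in each TIA line, and both were D-type cyclins, the partners of CDK4 and CDK6. Over all genes, 4.73% and 2.84% were called lower. CCND1 gave 0.75 and 0.91 on the HuR arrays, -1.08 and -0.91 on the TIA1 arrays, -0.84 and -0.77 on the TIAR arrays and -0.94 and -0.84 on the GFP arrays. The HuR arrays stood apart, and the TIA arrays overlapped those of GFP. CCND1 fell by -1.83 (adjusted p = 0.0026) and -1.64 (adjusted p = 0.0049), and CCND2 by -1.20 (adjusted p = 0.0033) and -1.21 (adjusted p = 0.0072). CCND2 likewise was at 3.78 and 3.71 on the HuR arrays and at 2.07 and 2.37 on the GFP arrays, with all TIA arrays between 2.44 and 2.63. Without HuR 1 the CCND2 call in TIAR-expressing cells was lost, and without HuR 2 the calls of both cyclins.

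Genes of the G1/S transition, activated by E2F when it is free of pocket proteins, were tested for 32 genes. Of these, 2 rose in TIA1-expressing cells, CDC6 (1.37, adjusted p = 0.0029) and TK1 (1.33, adjusted p = 0.0028), and 3 in TIAR-expressing cells, CDC6 (1.35, adjusted p = 0.0054), CDT1 (1.30, adjusted p = 0.0053) and TK1 (1.17, adjusted p = 0.0072). CDC6 and CDT1 load the replicative helicase on origins, and TK1 is the thymidine kinase of S phase cells. None fell, 30 and 29 were not called, and the called shares of 6.25% and 9.38% were below those of all genes. The median log2 fold change of the list was 0.41 for TIA1 and 0.31 for TIAR, with 27 and 23 of 32 genes above 0, against 56% and 55.5% of all genes. PCNA, the sliding clamp of DNA replication, was not called at its main probe (0.97 and 0.99), while 1 of its 2 other probes was (1.12 and 1.04). CDC6 gave -3.14 and -3.04 on the HuR arrays, -2.60 and -2.29 on the GFP arrays, -1.76 and -1.69 on the TIA1 arrays and -1.79 and -1.70 on the TIAR arrays. As for E2F1, GFP lay between HuR and the TIA lines. E2F words were present in 15 of the 42 promoters found for 26 of these genes (35.7%).

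Late cell cycle genes, which the DREAM complex of E2F4, p107 or p130 and the MuvB core represses and B-MYB activates, were tested for 16 genes. UBE2C, a ubiquitin-conjugating enzyme of mitotic exit, rose in both lines (1.41, adjusted p = 0.0030, and 1.29, adjusted p = 0.0054), and TOP2A, a topoisomerase that untangles chromosomes, rose in TIA1-expressing cells (1.02, adjusted p = 0.0058) and had a value of 0.98 in TIAR-expressing cells. The called shares of 12.5% and 6.25% were below the 13.2% and 10.2% of all genes, and the medians were 0.26 and 0.11. The probes of CCNB1, the cyclin of mitotic CDK1, disagreed, with -0.35 and -0.36 at the main probe and a called 1.63 and 1.30 at the other. Of the 6 genes of the MuvB core and B-MYB, 0 were called at their main probes, all of which were above 0 in both lines, and the medians were 0.58 and 0.38. The other LIN9 probe had the opposite sign, at -0.34 (adjusted p = 0.078) and -0.39 (adjusted p = 0.042), and 1 of the 3 other RBBP4 probes was called for TIA1, at 1.06. MYBL2, the gene of B-MYB and an E2F target, had the highest value among them, at 0.85 and 0.77.

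Of 7 apoptosis genes that E2F1 is known to activate, 3 rose in TIA1-expressing cells and 1 in TIAR-expressing cells, against 8.45% and 7.38% of all genes called higher. BBC3 (PUMA), an activator of mitochondrial apoptosis, gave 2.10 and 2.12 on the HuR arrays, 2.04 and 2.15 on the GFP arrays, 3.30 and 3.46 on the TIA1 arrays and 3.08 and 3.17 on the TIAR arrays. For BBC3, the control lines lay together and apart from both TIA lines. BBC3 rose by 1.27 (adjusted p = 0.0036) and 1.02 (adjusted p = 0.0072). BCL2L11 (BIM), a member of the same protein family, rose by 1.05 (adjusted p = 0.0042) in TIA1-expressing cells, and its 2 other probes, at 0.57 and 0.98, were not called. APAF1, the core of the apoptosome, rose by 1.01 (adjusted p = 0.0047) in TIA1-expressing cells and differed by 0.90 (adjusted p = 0.0083) in TIAR-expressing cells. GFP lay between HuR and the TIA lines for BCL2L11, at 0.92 and 1.28, and for APAF1, at -2.18 and -1.87. The medians of the list over HuR were 0.79 and 0.55. Over GFP with both arrays they were 0.60 and 0.24, with 5 and 6 of 7 genes above 0, against 51.4% and 49.7% of all genes.

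**Figure D4:**
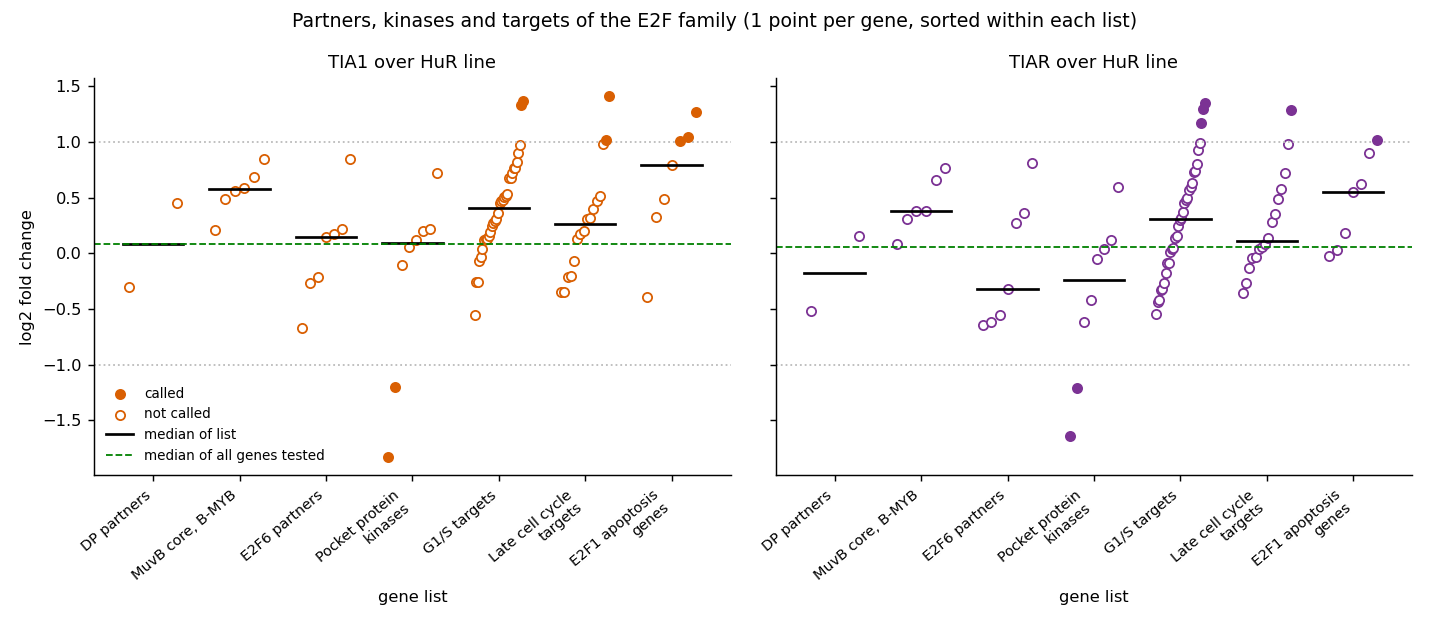
Log2 fold changes over HuR-expressing cells of the main probe of partners, kinases and targets of the E2F family in TIA1-expressing (left) and TIAR-expressing cells (right), with 1 point per gene and the genes sorted within each list. Black lines are list medians, the dashed line is the median of all genes tested (0.08 and 0.06), and dotted lines mark 2-fold. Most G1/S targets lie above 0 and under 2-fold, and 2 kinase genes, CCND1 and CCND2, are called lower on both sides.

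Like the calls of the family itself, those of the lists in TIAR-expressing cells rested on both HuR arrays. Without HuR 1, CCND1 was the only partner, kinase or target called at its main probe, and without HuR 2 there was none, while the medians of the G1/S targets were 0.33 and 0.29. In TIA1-expressing cells, leaving out 1 of the 4 arrays in turn gave medians of 0.28 to 0.46 for the G1/S targets. The medians were 0.22 to 0.29 for the late cell cycle genes and 0.72 to 0.86 for the apoptosis genes. TOP2A was not called without HuR 1 or TIA1 1, nor was APAF1 without HuR 2 or TIA1 1, and in TIAR-expressing cells BBC3 was not called without TIAR 2 or either HuR array. With both GFP arrays, no gene of the lists was called over GFP. Against GFP 2 alone, 0 of the 32 G1/S targets rose in either TIA line and 1 fell in TIA1-expressing cells, with medians of 0.37 and 0.23. CCNE1 and CCNE2, the cyclins of CDK2, are counted both as kinases and as G1/S targets.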

How the data were processed

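RNA of 4 FT293 lines was measured on 8 one-colour arrays. The deposited scanner files hold processed signals, which are intensity values that the authors obtained by background subtraction and detrending within each array, without normalization between arrays. A table of log2 values, deposited by the authors after normalization between arrays, served as an alternative.

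Processed signals were log2-transformed, the 75th percentile of each array was subtracted, spots marked as outliers were dropped and each probe's remaining spots averaged. A probe was tested if both arrays of 1 or both compared lines had it well above background. The tests used limma 3.58.1 (lmFit and eBayes, R 4.3.3) on the 4 arrays of a comparison, with Benjamini-Hochberg adjustment over all probes tested. The number of arrays limits the precision. The percentile scaling assumes that this part of the signal distribution is equal between lines. Same-numbered arrays did not deviate together (correlations from -0.09 to 0.18), so replicate numbers were not used as pairs.

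The genes, lists and comparisons were chosen with earlier results of these data known. Named are the 10 genes with all probes, the marker genes, up to 4 called genes of each list with the largest change over HuR, genes at the end of a list's range, and the 3 genes closest to E2F1 and to E2F5 in pattern. The promoter stretches to print, and list genes named because their probes differed in sign or call, were chosen after values were seen. Positions of probes come from the array's design (hg19), promoters are from RefSeq (GRCh38.p14), and probes were not assigned to exons. Alternatives were normexp (offset 50), quantile normalization, both together, the authors' values, other filters, all 8 arrays in one fit, array weights, the replicate block, leaving out each array and the methods' paired test. Counts and medians for the lists with an array left out were added after seeing the data. Plots were drawn with matplotlib 3.10.9.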

Additional observations from a re-analysis of the deposited data

Results flagged for a closer look

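None of the 10 E2F and pocket protein genes had a direct difference between the TIA lines past the adjusted p, but 2 genes of the lists did. Both stood out because the TIA lines themselves were compared. The difference of TIAR from TIA1 was -0.97 (standard error 0.11, limma adjusted p = 0.034) for TFDP1, the DP partner of the E2Fs, and -0.81 (standard error 0.12, adjusted p = 0.048) for CDK6, a kinase of pocket proteins. TFDP1 was lower on 2 of 2 TIAR arrays, at 2.68 and 2.75 against 3.65 and 3.71, and CDK6 likewise, at 1.80 and 1.69 against 2.61 and 2.50. Both are below 2-fold and were not called. Neither passed the adjusted p when any 1 of the 4 arrays was left out (0.12 to 0.15 for TFDP1 and 0.15 to 0.18 for CDK6), and TFDP1 passed it in 6 of 13 alternative fits and CDK6 in 3, with adjusted p from 0.0054 to 0.26 and from 0.018 to 0.29. These alternatives were added after seeing the data. The GFP arrays had 3.44 and 3.68 for TFDP1 and 1.13 and 1.88 for CDK6. The TIAR and TIA1 arrays lay in different rows of the slide, so row and line cannot be told apart for either gene.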

How the results depend on the processing

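E2F5 was called over HuR in 13 of 13 alternative fits with limma in both TIA lines (log2 fold change -2.56 to -2.18 and -2.62 to -2.22). Which of the 10 genes were called changed with the array left out, over HuR and over GFP alike. Over HuR, the median of the 3 activators was then 1.09 to 1.22 for TIA1 and 1.01 to 1.20 for TIAR. The methods' paired t-test called 0 of 10 over HuR in both lines after Benjamini-Hochberg adjustment, and unadjusted it called 1 for TIA1 and 2 for TIAR over GFP. Its share over all genes was not computed. All 8 arrays in one fit called 2 and 2 over GFP, against 8.98% and 5.94% of all genes. With array weights they called 2 and 1, against 2.44% and 0.521%. The replicate block called 4 and 4 over HuR, against 13.3% and 10.2% of all genes, and 0 in the other 4 comparisons. It so changed no count of the 10 genes, while over all genes it moved the calls between TIAR and TIA1 from 489 to 0. These calls were 0 to 25 with 1 array left out and 0 without a filter on dim probes, and their share of higher genes was 46.7% in place of 56.4% for probes well above background on all 4 arrays. Over GFP, the share of higher genes among all those called was 63.3% without GFP 1 and 33.5% without GFP 2 for TIA1, 76.8% and 29.2% for TIAR, and 52.6% and 18.3% for HuR. The cause of these changes was not tested. With quantile normalization, the share of higher genes among all those called for TIAR over HuR was 59.9% in place of 72.2%, and the median of all genes for TIA1 over GFP was 0.21 in place of 0.02. With the authors' values, 1294 and 971 genes were called over HuR in place of 2797 and 2197.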
